A study of Mus musculus with 8 samples.

Results

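The transcripts of 34 nuclear receptor genes were compared between livers of FxrKO and Bcl6LKOFxrKO mice. The genes were taken by symbol from the 24940 genes of the deposited count table, and all 34 symbols were found. All 8 mice were C57BL/6 males, homozygous for the Fxr knockout in every tissue and carrying loxP-flanked Bcl6 (Bcl6 fl/fl), and 4 livers had no Cre (FxrKO, livers 1 to 4). The other 4 (Bcl6LKOFxrKO, livers 5 to 8) also carried Alb-Cre, which removes Bcl6 from hepatocytes. Bcl6 in the remaining liver cells was not measured separately. No liver with intact Fxr was analysed here, so every difference below is between FxrKO and Bcl6LKOFxrKO livers, on an Fxr-null background. Whether a difference came from losing hepatocyte Bcl6, from Alb-Cre itself or from a changed mix of liver cells was not tested. The paper reports higher serum and liver bile acids and cholestatic liver damage in Bcl6LKOFxrKO than in FxrKO males. Whether a difference followed from that overload or damage was not tested either. The labels give no age and no agent, and do not tie feeding or time of day to a liver.

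Nuclear receptors are transcription factors that bind DNA through a zinc finger domain, many of them as a heterodimer with a retinoid X receptor (RXR), and most are switched by a small lipophilic ligand such as a bile acid, an oxysterol, a fatty acid, a steroid, thyroid hormone or retinoic acid. In hepatocytes they tie the inflow of nutrients, bile acids and foreign compounds to the genes that make, export or degrade them. Small heterodimer partner (SHP, encoded by Nr0b2) has no DNA binding domain and represses other receptors, and BCL6 is a zinc finger repressor of another family.

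Bcl6 itself, which checks the labels, was at 56.3, 65.2, 21.2 and 55.6 CPM, the read count after division by the TMM-adjusted library size, in the FxrKO livers and at 11.9, 4.61, 5.55 and 7.72 CPM in the Bcl6LKOFxrKO livers. The lowest FxrKO liver, liver 3, stayed above the highest Bcl6LKOFxrKO liver. Library totals lay between 7586241 and 11839503 counts, and 12340 genes had enough counts to be tested. Some markers of other liver cells were called higher (adjusted p under 0.05, edgeR), and none lower, in the Bcl6LKOFxrKO livers. Of all tested genes, 16.2% were called higher. Of 10 stellate cell and fibroblast markers 7 were called higher, with a summed level of 240 to 334 CPM in FxrKO and 493 to 604 CPM in Bcl6LKOFxrKO. The count was 3 of 9 for macrophages (375 to 535 against 501 CPM to 813 CPM), 2 of 5 tested for cholangiocytes (58.1 to 84.1 against 91.2 to 155 CPM), 1 of 8 for sinusoidal endothelium (184 to 249 against 236 to 309 CPM), 2 of 3 tested for neutrophils (5.05 to 12.3 against 13.6 to 22.6 CPM) and 1 of 1 tested for T cells (1.87 to 2.18 against 3.93 to 6.90 CPM). The summed ranges of the macrophage and of the sinusoidal endothelial markers overlapped between the genotypes. Of 8 hepatocyte markers, 3 were called lower and 1, Alb, higher. Alb took 4.04% to 5.16% of all counts in FxrKO and 11.9% to 13.2% in Bcl6LKOFxrKO livers. In bulk liver, fewer cells of a type and less RNA per cell cannot be told apart.

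Nuclear receptor genes were more often called lower than higher in Bcl6LKOFxrKO livers. Of the 34 genes, 30 had enough counts to be tested, and 14 of these differed at an adjusted p under 0.05 (edgeR's quasi-likelihood test, Benjamini-Hochberg adjustment over all 12340 tested genes), which is what called means here. Of the 30, 9 were called lower (30%), where 13.5% of all tested genes were called lower. The 5 called higher were 16.7% of the 30, a share near the 16.2% of all tested genes. In either direction 46.7% of the tested receptor genes were called, against 29.7% of all tested genes. The levels of the livers of the 2 genotypes did not overlap for 10 of the 30 (33.3%), which is near the 31.3% of all tested genes. The median log2 fold change was -0.21 over the 30 genes and 0.01 over all tested genes, and the median absolute log2 fold change was 0.47 against 0.31. Most differences were modest: 3 called genes of the 30 (Nr0b2, Rarb and Esr1) changed by more than 1 on the log2 scale. Of all 12340 tested genes, 874 were called higher and 421 lower at that size.

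**Figure D1:**
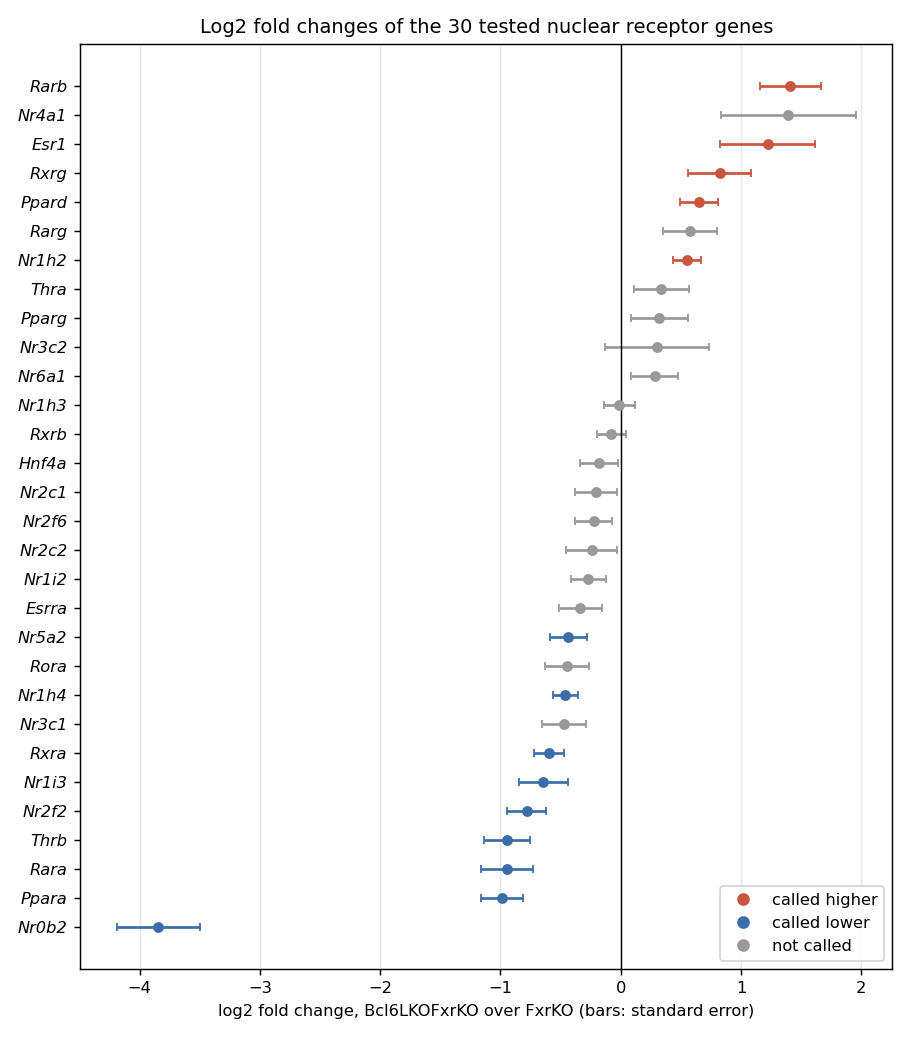
Log2 fold change of each tested nuclear receptor gene in Bcl6LKOFxrKO over FxrKO livers, with the standard error from edgeR as bars and the call as colour. Nr0b2 stands far to the left at -3.85, and 19 of the 30 points lie below 0.

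The 10 genes whose livers did not overlap were Nr0b2, Ppara, Thrb, Rara, Nr2f2, Rxra and Nr1h4, all lower, and Rarb, Ppard and Nr1h2, all higher. Each of them was called in every alternative fit that tested it, 15 fits with other tools, scalings, filters or 1 liver left out for each gene except Nr0b2, which the demand for at least 10 counts in every liver removed from 1. The other 4 called genes (Rxrg, Nr1i3, Esr1 and Nr5a2) overlapped between genotypes and lost their call in several of these fits. Leaving out liver 2, 4, 5 or 7 took the count of higher genes from 5 to 3, while the count of lower genes stayed between 7 and 10 with any liver left out. The receptor genes took 0.245% to 0.274% of all counts in the FxrKO livers and 0.176% to 0.195% in the Bcl6LKOFxrKO livers. The 50 most counted genes took 31.2% to 32.6% of all counts in FxrKO and 41.7% to 45.1% in Bcl6LKOFxrKO livers. That alone lowers the share of the other genes. The summed CPM per kilobase of the receptor genes was 669 to 735 in FxrKO and 543 to 622 in Bcl6LKOFxrKO livers.

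Per kilobase of the deposited transcript length, the same genes led in both genotypes. Hnf4a was the most abundant, with a mean of 174 RPKM (CPM per kilobase of transcript) in FxrKO and 153 RPKM in Bcl6LKOFxrKO livers. Rxra followed at 115 and 76.1 RPKM, Nr1i3 at 112 and 71.6 RPKM and Nr1h3 at 68.4 and 67.7 RPKM. Below these 4 the order differed. Ppara went from rank 5 of 34 (34.8 RPKM) to rank 9 (17.5 RPKM), and Nr1h2 from rank 9 (19.4 RPKM) to rank 5 (28.4 RPKM). Nr0b2 dropped from rank 13 (9.68 RPKM) to rank 30 (0.682 RPKM). Rarb went from rank 28 to rank 19. The deposited length enters each level, and for Ppara it is 7435 bases where the GENCODE transcript matched to it has 3413 exon bases, so its level and rank depend on which is used.

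**Figure D2:**
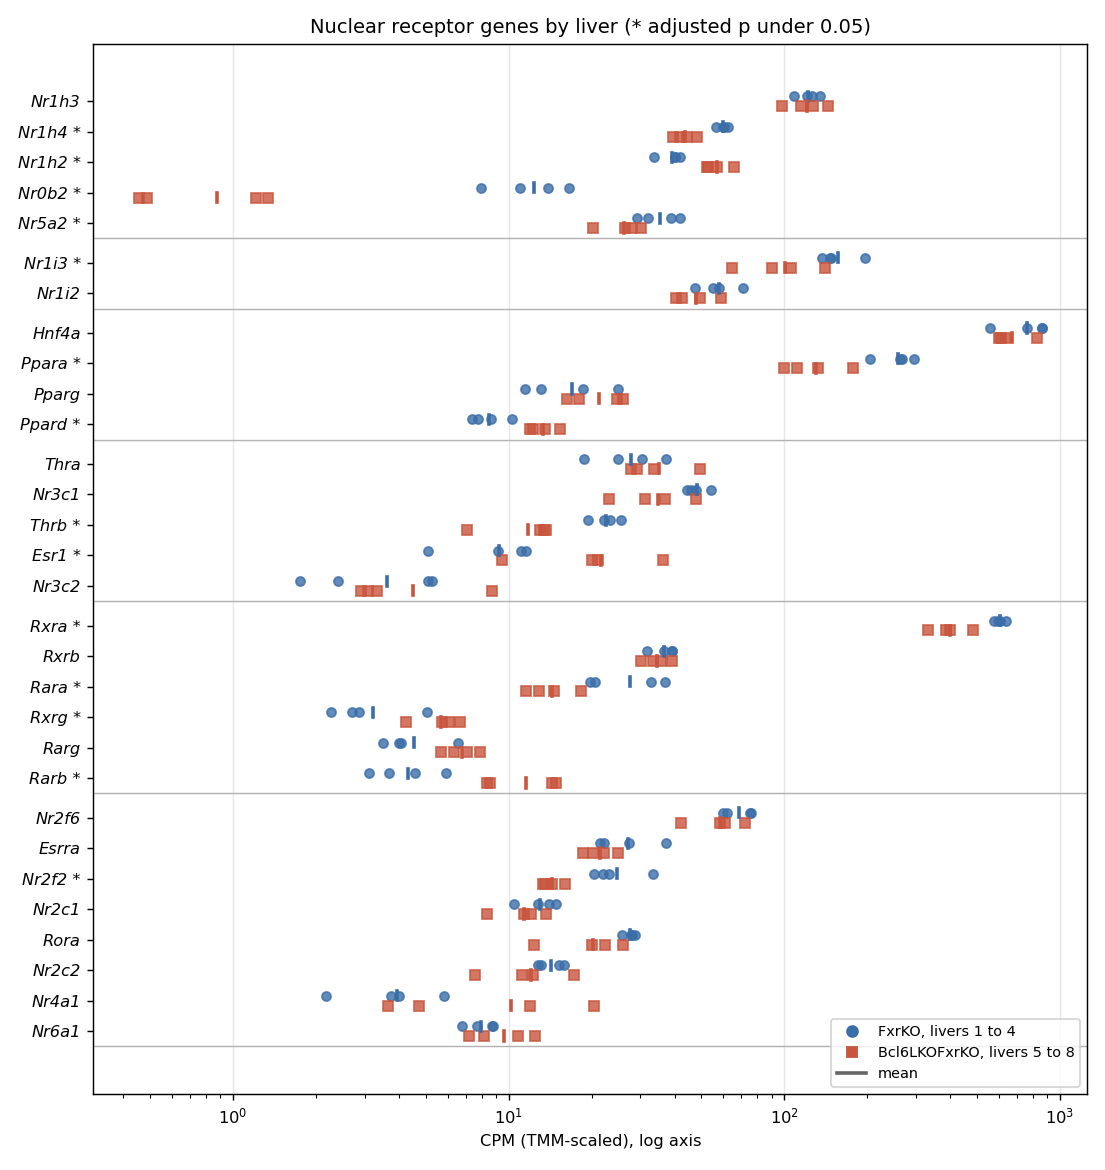
CPM of the 30 tested nuclear receptor genes in each liver on a log axis, FxrKO as circles and Bcl6LKOFxrKO as squares, with vertical ticks at the means and the genes in blocks by role (bile acid and sterol, xenobiotic, fatty acid and hepatocyte, steroid and thyroid, retinoid, orphan). The Nr0b2 squares lie between 0.454 and 1.33 CPM, below all of its circles, while the squares and circles of Nr1h3 and Hnf4a mix.

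Among the 6 genes grouped under bile acid and sterol sensing, 3 were called lower and 1 higher, 1 was not called and 1 was not tested. Across all tested genes, 13.5% were called lower and 16.2% higher. Nr0b2 showed the largest change of any receptor gene. It encodes SHP, which bile acids are known to induce through FXR and which represses bile acid synthesis by inhibiting LRH-1. Nr0b2 (mm10 chromosome 4, 133553376 to 133556686) was at 14.0, 16.6, 11.0 and 7.95 CPM in FxrKO livers 1 to 4 and at 1.21, 1.33, 0.487 and 0.454 CPM in Bcl6LKOFxrKO livers 5 to 8. The latter values rest on 12, 11, 5 and 5 reads. Every Bcl6LKOFxrKO liver was far below every FxrKO liver, and the log2 fold change was -3.85 (SE 0.34, adjusted p = 4.14e-06, edgeR; exact two-sided permutation p = 0.0286, the smallest that 4 against 4 livers allow). It ranked 136 among all tested genes by absolute log2 fold change. With any liver left out, the log2 fold change lay between -4.11 and -3.62.

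The bases just upstream of Nr0b2 are shown because they carry letters of factors that the comparison is about. The motifs searched on both strands of the 250 bases before the start were AGGTCA, the half-site of many nuclear receptors, TCAAGG, the core that LRH-1 (Nr5a2) is known to bind, TTCNNNGAA, a palindrome of the kind that BCL6 and STAT factors are known to bind, and repeats of the half-site. For 31 of the 34 genes RefSeq gave a promoter, and for 24 it began within 5 bases of the counted transcript. Of these 24, 3 held TCAAGG, which 14.4% of all 32851 RefSeq promoters of the same length held, and 2 held TTCNNNGAA, against 8.3%. Of the 24, 4 held AGGTCA (Nr5a2, Thrb, Rxrg and Nr6a1), against 16.3%. These counts are near the shares over all promoters, so the letters do not set the receptor genes apart. Nr0b2 held TCAAGG at 68 and again at 35 bases before its start, on its own strand, and TTCAATGAA at 91 bases before it. The pattern TTCNNNGAA reads the same on both strands, so its match has no strand. The upstream bases of Nr0b2, from RefSeq on mm10 at chr4:133553126-133553375 (plus strand, 50% GC), are printed with these 3 matches in capitals. A match is a description of the letters and not a site.
Nr0b2: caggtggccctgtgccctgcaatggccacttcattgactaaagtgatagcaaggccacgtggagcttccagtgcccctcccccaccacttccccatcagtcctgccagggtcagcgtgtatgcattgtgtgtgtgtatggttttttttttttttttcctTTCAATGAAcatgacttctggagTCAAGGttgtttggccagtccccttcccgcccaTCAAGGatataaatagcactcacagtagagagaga

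Nr1h4 encodes FXR, the bile acid receptor, and reads of its transcript were counted in all 8 livers, which are labelled as Fxr knockouts. The count is over the whole transcript and not over the deleted part, so it does not check the knockout. Its livers were at 59.7, 56.7, 60.7 and 62.6 CPM in FxrKO and at 42.0, 39.4, 44.4 and 48.1 CPM in Bcl6LKOFxrKO. The genotypes did not overlap, and the spread within each was small. The log2 fold change was -0.46 (SE 0.10, adjusted p = 0.00497, edgeR), and the exact two-sided permutation p was 0.0286.

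Nr5a2 encodes LRH-1, the orphan receptor that activates the bile acid synthesis genes and is itself a partner of SHP. It was at 32.0, 41.7, 29.3 and 38.8 CPM in FxrKO and at 26.4, 28.03, 30.3 and 20.2 CPM in Bcl6LKOFxrKO livers. Liver 7 overlapped the lowest FxrKO liver. The log2 fold change of -0.44 (SE 0.15) passed narrowly (adjusted p = 0.0477, edgeR; exact two-sided permutation p = 0.0571) and lost its call when liver 1, 2, 4, 5, 6 or 8 was left out, with adjusted p up to 0.14.

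The liver X receptors sense oxysterols and drive cholesterol export and fatty acid synthesis. Nr1h2 (LXR beta), the more widely expressed form, was at 40.3, 40.2, 42.0 and 33.7 CPM in FxrKO and at 57.1, 52.3, 53.0 and 66.0 CPM in Bcl6LKOFxrKO livers. All Bcl6LKOFxrKO livers were higher, with a log2 fold change of 0.55 (SE 0.12, adjusted p = 0.00376, edgeR). Nr1h3 (LXR alpha), the main form of hepatocytes, was at 134, 126, 121 and 108 CPM in FxrKO and at 115, 128, 98.1 and 145 CPM in Bcl6LKOFxrKO livers. These ranges lay within each other, and the log2 fold change was -0.01 (SE 0.13, adjusted p = 0.95, edgeR). Vdr, the vitamin D receptor, which also binds lithocholic acid, had 0 to 4 reads in any liver and was not tested.

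A list of 8 bile acid synthesis and transport genes was drawn up under the name of SHP and LRH-1 targets. It also holds carriers under other control, and the paper describes NTCP (Slc10a1) as inhibited by FXR. Of the 8 genes, 6 were tested, 2 were called lower and none higher, and Slc51a and Slc51b were listed at 0 in every liver. Slc10a1, the basolateral bile acid uptake carrier NTCP, was at 491, 583, 765 and 716 CPM in FxrKO and at 112, 181, 178 and 104 CPM in Bcl6LKOFxrKO livers (log2 fold change -2.15, adjusted p = 1.2e-05, edgeR). Abcb4, the canalicular phospholipid carrier, was lower by edgeR (adjusted p = 0.0109) at -0.57 on the log2 scale. The bile acid synthesis genes of the list, named after their values were seen, were not called. Cyp7a1, the rate-limiting enzyme, was at 89.7, 119, 412 and 478 CPM in FxrKO and at 434, 380, 558 and 262 CPM in Bcl6LKOFxrKO livers, which overlapped (log2 fold change 0.57, SE 0.58, adjusted p = 0.5, edgeR). Cyp8b1, the sterol hydroxylase needed for cholic acid, was at 712 to 1134 CPM and 690 CPM to 1362 CPM (log2 fold change 0.22, adjusted p = 0.423, edgeR). The median of the list was -0.16. Of 9 LXR targets, 3 were called lower and none higher, and the median of the list was -0.70. For both lists the background over all tested genes was 13.5% lower, 16.2% higher and a median of 0.01. The LXR targets with the smallest adjusted p were Scd1, the stearoyl-CoA desaturase (-1.49), and Abcg8, part of the sterol exporter of the canaliculus (-1.17).

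The xenobiotic sensors PXR and CAR switch on drug metabolising enzymes and carriers. Nr1i3 (CAR) was at 147, 137, 148 and 196 CPM in FxrKO and at 90.6, 64.4, 106 and 140 CPM in Bcl6LKOFxrKO livers. Only liver 8 reached into the FxrKO range, above liver 2. The log2 fold change was -0.64 (SE 0.20, adjusted p = 0.0338, edgeR; exact two-sided permutation p = 0.0571), and the call was lost without liver 3, 4, 5 or 7 (adjusted p up to 0.0913). The counting names no strand option, and 66.2% of the exon bases of Nr1i3 are also exon of Tomm40l on the opposite strand, so reads of the 2 genes cannot be told apart. Tomm40l itself went from 168 to 85.2 CPM (log2 fold change -0.98, adjusted p = 0.00243, edgeR). Nr1i2 (PXR) was at 55.2, 57.9, 47.5 and 70.8 CPM in FxrKO and at 40.6, 42.6, 49.6 and 59.2 CPM in Bcl6LKOFxrKO livers. The genotypes overlapped, and the log2 fold change of -0.27 (SE 0.15) was not called (adjusted p = 0.197, edgeR). It was called with limma voom, with total counts alone and without liver 8. Of 9 PXR and CAR targets, 1 was called higher and 2 lower, with a median of 0.19. All tested genes gave 16.2% higher, 13.5% lower and a median of 0.01. Abcb1a, a drug exporter, had a log2 fold change of 1.16, Abcc3, a basolateral exporter of conjugates, -0.91, and Cyp2c37 -1.28.

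Of the receptors for fatty acids and the hepatocyte programme, 4 of 5 were tested. Ppara encodes the fatty acid receptor that drives hepatic fat oxidation. It was at 205, 264, 269 and 296 CPM in FxrKO and at 100.0, 132, 177 and 112 CPM in Bcl6LKOFxrKO livers, 1.98-fold lower. The genotypes did not overlap, and the difference was -0.99 on the log2 scale (SE 0.17, adjusted p = 0.00104, edgeR), the smallest adjusted p after Nr0b2. Ppard, a more widely expressed relative, went the other way. It was at 8.64, 10.2, 7.74 and 7.38 CPM in FxrKO and at 13.6, 15.4, 12.0 and 12.3 CPM in Bcl6LKOFxrKO livers. Every Bcl6LKOFxrKO liver was above every FxrKO liver, with a log2 fold change of 0.65 (SE 0.16, adjusted p = 0.00803, edgeR).

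Pparg, the adipogenic receptor, which is low in lean liver, was at 11.4, 13.1, 24.9 and 18.6 CPM in FxrKO and at 24.8, 16.3, 26.1 and 17.98 CPM in Bcl6LKOFxrKO livers. These overlapped widely, and the log2 fold change of 0.32 (SE 0.24) was not called (adjusted p = 0.339, edgeR). Hnf4a, a master regulator of hepatocyte genes, was at 860, 864, 559 and 759 CPM in FxrKO and at 635, 825, 604 and 614 CPM in Bcl6LKOFxrKO livers. Liver 3 was the lowest of all 8 and liver 6 was high among its group, and the log2 fold change of -0.18 (SE 0.16) was not called (adjusted p = 0.41, edgeR). Hnf4g, its gut-expressed relative, had 0 to 2 reads and was not tested. Of 15 PPAR alpha targets, 6 were called lower and 2 higher, with a median of -0.40. Acadm, the medium-chain acyl-CoA dehydrogenase, had a log2 fold change of -0.55. The 2 higher genes were Fgf21, a hepatokine (3.01, with levels of 0.261 and 2.24 CPM), and Pdk4, which restrains pyruvate oxidation (2.25). Of 7 HNF4 alpha targets, 3 were called lower and 1 higher, with a median of -0.30. Among them were the urea cycle gene Otc (-0.87), the transthyretin gene Ttr (-0.76) and Apoc3, an apolipoprotein gene (0.58). Beside both lists, 13.5% of all tested genes were called lower and 16.2% higher, with a median of 0.01.

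Among the steroid and thyroid hormone receptors, 1 of 5 was called lower and 1 higher, against 13.5% and 16.2% of all tested genes. Thrb encodes thyroid hormone receptor beta, through which the hormone acts on many metabolic genes of the liver. It was at 23.3, 25.6, 19.5 and 22.2 CPM in FxrKO and at 13.0, 13.5, 13.6 and 7.08 CPM in Bcl6LKOFxrKO livers. The genotypes did not overlap, and liver 8 was well below the other 3 of its group. The log2 fold change was -0.94 (SE 0.19, adjusted p = 0.00265, edgeR), and it lay between -1.02 and -0.76 with any liver left out. Thra, the other thyroid hormone receptor, was at 18.8 to 37.1 CPM in FxrKO and at 27.9 to 49.7 CPM in Bcl6LKOFxrKO livers, with a log2 fold change of 0.34 that was not called (adjusted p = 0.285, edgeR). Of its exon bases, 10.7% are shared with Nr1d1 on the opposite strand.

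The upstream bases of Thrb are shown for comparison with those of Nr0b2, since both held the LRH-1 core. They come from RefSeq on mm10 at chr14:17660710-17660959 (plus strand, 71.6% GC). The capitals mark AGGTCA at 184 bases before the start, which overlaps TCAAGG at 181 bases. The third of the 24 promoters with TCAAGG was that of Rxrb, at 21 bases before the start. Rxrb was not called, with a log2 fold change of -0.08.
Thrb: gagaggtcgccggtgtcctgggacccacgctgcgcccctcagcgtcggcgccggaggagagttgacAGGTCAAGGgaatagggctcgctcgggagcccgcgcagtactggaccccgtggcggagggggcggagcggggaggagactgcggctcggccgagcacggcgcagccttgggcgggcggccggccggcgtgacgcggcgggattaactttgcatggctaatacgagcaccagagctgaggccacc

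Of 5 thyroid hormone receptor targets, 3 were called lower and 1 higher, with a median of -0.51. These few genes stand beside 13.5% lower, 16.2% higher and a median of 0.01 over all tested genes. Dio1, the deiodinase that activates thyroxine, was at -1.11 on the log2 scale (adjusted p = 5.69e-05, edgeR), Gpd2, the mitochondrial glycerol phosphate dehydrogenase, -0.42, and Thrsp, a lipogenic gene, 0.59.

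Esr1 (estrogen receptor alpha) was at 5.10, 9.12, 11.6 and 11.1 CPM in FxrKO and at 20.1, 36.3, 21.0 and 9.44 CPM in Bcl6LKOFxrKO livers. Livers 5, 6 and 7 were above all FxrKO livers, while liver 8 lay among them. The log2 fold change of 1.22 (SE 0.40) passed narrowly (adjusted p = 0.0448, edgeR; exact two-sided permutation p = 0.0857) and was lost without any 1 of livers 1 to 7, with total counts alone and with no filter. Nr3c1 (glucocorticoid receptor) was at 48.0, 44.5, 54.2 and 46.0 CPM in FxrKO and at 31.3, 36.9, 47.8 and 23.2 CPM in Bcl6LKOFxrKO livers. Only liver 7 reached the FxrKO range, and the log2 fold change of -0.47 (SE 0.18) was not called (adjusted p = 0.0692, edgeR; exact two-sided permutation p = 0.0857). Without liver 7 it was -0.66 and called (adjusted p = 0.0092, edgeR), as it also was with limma voom and with total counts alone. Nr3c2 (mineralocorticoid receptor) was at 1.75 to 5.27 CPM in FxrKO and at 2.91 to 8.67 CPM in Bcl6LKOFxrKO livers. Its log2 fold change of 0.30 was not called (adjusted p = 0.64, edgeR) and turned to -0.24 without liver 7. Of 9 glucocorticoid receptor targets, 2 were called higher and 2 lower, with a median of 0.14. All tested genes gave 16.2% higher, 13.5% lower and a median of 0.01. The kinase gene Sgk1 (1.43) and the immunophilin gene Fkbp5 (1.10) were higher, and the gluconeogenic gene Pck1 (-1.61) and Tsc22d3 (-1.92), which encodes GILZ, were lower.

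Of the 6 retinoid receptors, 2 were called lower (Rara and Rxra), 2 higher (Rarb and Rxrg) and 2 were not called. Shares over all tested genes were 13.5% lower and 16.2% higher. Rara, the retinoic acid receptor that was most abundant of the 3 in FxrKO livers, was at 36.9, 33.0, 19.7 and 20.6 CPM there and at 14.6, 18.3, 12.9 and 11.5 CPM in Bcl6LKOFxrKO livers. Livers 3 and 4 were close to liver 6, but the genotypes did not overlap. Its log2 fold change was -0.95 (SE 0.22, adjusted p = 0.00648, edgeR). Rarb, which retinoic acid is known to induce, was at 4.58, 3.12, 5.91 and 3.69 CPM in FxrKO and at 14.8, 8.37, 14.4 and 8.54 CPM in Bcl6LKOFxrKO livers. All Bcl6LKOFxrKO livers were above all FxrKO livers, with a log2 fold change of 1.41 (SE 0.25, adjusted p = 0.00116, edgeR). Of its exon bases, 57.7% are also exon of Top2b on the opposite strand, so reads of these genes cannot be told apart. Top2b went from 29.8 to 24.0 CPM (log2 fold change -0.31, adjusted p = 0.157, edgeR). Rarg was at 3.501 to 6.56 CPM in FxrKO and at 5.70 to 7.90 CPM in Bcl6LKOFxrKO livers. Its log2 fold change of 0.58 (SE 0.22) was not called (adjusted p = 0.0676, edgeR), and it was called without liver 1 and with limma voom.

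The upstream bases of Rarb are shown because they hold the direct repeat with a spacer of 5 through which retinoic acid receptors are known to act on this gene. The repeat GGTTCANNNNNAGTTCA, searched on both strands, was found in 2 of the 32851 RefSeq promoters (0.00609%). Its letters are those of the known element of this gene, so the match in Rarb was fixed by the choice of motif. Direct repeats of AGGTCA spaced by 1, 4 or 5 bases and its inverted repeat spaced by 1 were in none of the 24. The sequence comes from RefSeq on mm10 at chr14:16575477-16575726 (minus strand, 58.0% GC), and the capitals mark the repeat, which starts 53 bases before the start of the transcript. The letters TTCNNNGAA also matched in this promoter, at 51 bases before the start and within the repeat, so the 2 matches share bases.
Rarb: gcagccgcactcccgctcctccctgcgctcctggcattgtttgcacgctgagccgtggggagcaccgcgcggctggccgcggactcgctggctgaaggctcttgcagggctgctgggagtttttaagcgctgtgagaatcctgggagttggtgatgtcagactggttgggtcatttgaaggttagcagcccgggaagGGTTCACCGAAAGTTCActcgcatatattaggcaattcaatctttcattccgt

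Rxra, the common heterodimer partner in hepatocytes, was at 599, 609, 575 and 636 CPM in FxrKO and at 332, 485, 385 and 399 CPM in Bcl6LKOFxrKO livers. The FxrKO livers were tightly grouped, and all Bcl6LKOFxrKO livers were lower, by -0.60 on the log2 scale (SE 0.13, adjusted p = 0.00365, edgeR), a 1.51-fold difference. Rxrb, a widely expressed relative, was at 31.7 to 39.1 CPM and 30.2 to 39.3 CPM, with a log2 fold change of -0.08 (adjusted p = 0.668, edgeR). Rxrg, the least abundant RXR, was at 2.71, 2.87, 5.05 and 2.27 CPM in FxrKO and at 6.65, 4.25, 5.75 and 6.08 CPM in Bcl6LKOFxrKO livers. Liver 3 overlapped liver 6. Its log2 fold change of 0.82 (SE 0.26) was called (adjusted p = 0.0312, edgeR; exact two-sided permutation p = 0.0571) but lost without liver 1, 2, 4, 5, 7 or 8 and with total counts alone.

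Of 5 retinoic acid targets, 4 were tested, 2 were called higher and none lower, and the median of the list was 1.21 on the log2 scale. The list is small, and all tested genes gave 16.2% higher, 13.5% lower and a median of 0.01. Cyp26a1, the enzyme that degrades retinoic acid, was at 23.3, 13.7, 14.8 and 19.7 CPM in FxrKO and at 79.9, 85.8, 102 and 58.1 CPM in Bcl6LKOFxrKO livers (log2 fold change 2.18, adjusted p = 6.18e-06, edgeR). The livers of the genotypes stood apart for it. Stellate cells store retinoids, and the stellate cell markers given above were higher in the same livers, with Lrat, the retinol esterifying enzyme of these cells, at a log2 fold change of 0.79 (adjusted p = 0.0969, edgeR). The part of stellate cells in the levels of Rarb and Rxrg was not tested.

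Of 10 receptor families, the shares of the RAR, PPAR, thyroid hormone receptor and LXR genes, and of Rxra and Rxrb, did not overlap between the genotypes. The share of each gene in the summed RPKM of its family does not depend on how libraries are scaled, and it is given as a description with no test. The shares of a family are tied to each other, so a share can move only because another gene of the family changed. By their own levels Pparg, Rarg, Thra, Rxrb and Nr1h3 were not called. Rara held 63.7% to 80.2% of RAR transcripts in FxrKO livers and 35.9% to 53.7% in Bcl6LKOFxrKO livers. Rarb held 8.13% to 20.5% and 26.3% to 43.0%, and Rarg 11.6% to 15.8% and 20.0% to 31.4%. Rara thus made up the larger part of the family in every FxrKO liver, and in Bcl6LKOFxrKO livers 5 and 7 its share was below that of Rarb. Ppara held 71.8% to 79.1% of PPAR transcripts in FxrKO and 45.8% to 59.7% in Bcl6LKOFxrKO livers. The share of Ppard was 4.52% to 7.54% and 9.36% to 15.9%, and that of Pparg 13.8% to 23.4% and 25.4% to 39.8%. Exon overlaps on the opposite strand enter the shares, as for Rarb (57.7%, with Top2b) and Nr1i3 (66.2%, with Tomm40l). The shares also rest on the deposited lengths. On raw counts with no length scaling the difference of Ppara was -12.5 percentage points in place of -21.8, and that of Pparg 7.22 in place of 14.4.

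Thrb held 20.5% to 32.7% of thyroid hormone receptor transcripts in FxrKO and 5.55% to 16.8% in Bcl6LKOFxrKO livers, and Thra the remainder. Rxra remained the main RXR, at 85.9% to 90.0% and 79.0% to 85.1%, and the mean share of Rxrb was 10.7% and 14.4%. The share of Nr1h2 among LXR transcripts was 21.1% to 23.7% and 26.8% to 32.5%. None of these ranges overlapped. Those of Nr1i3 in the pair of PXR and CAR (80.9% to 84.8% and 73.1% to 81.0%), of Nr3c1 in the pair with Nr3c2 (85.3% to 94.3% and 78.1% to 89.1%), of Rxrg (1.01% to 2.38% and 2.35% to 4.998%) and of Nr2f2 among the NR2F genes (12.4% to 18.6% and 8.78% to 16.4%) did. The shares of Nr2c1 in the pair with Nr2c2 also overlapped (57.9% to 68.1% and 58.2% to 69.1%), and Hnf4a held between 99.97% and 100% of HNF4 transcripts.

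**Figure D3:**
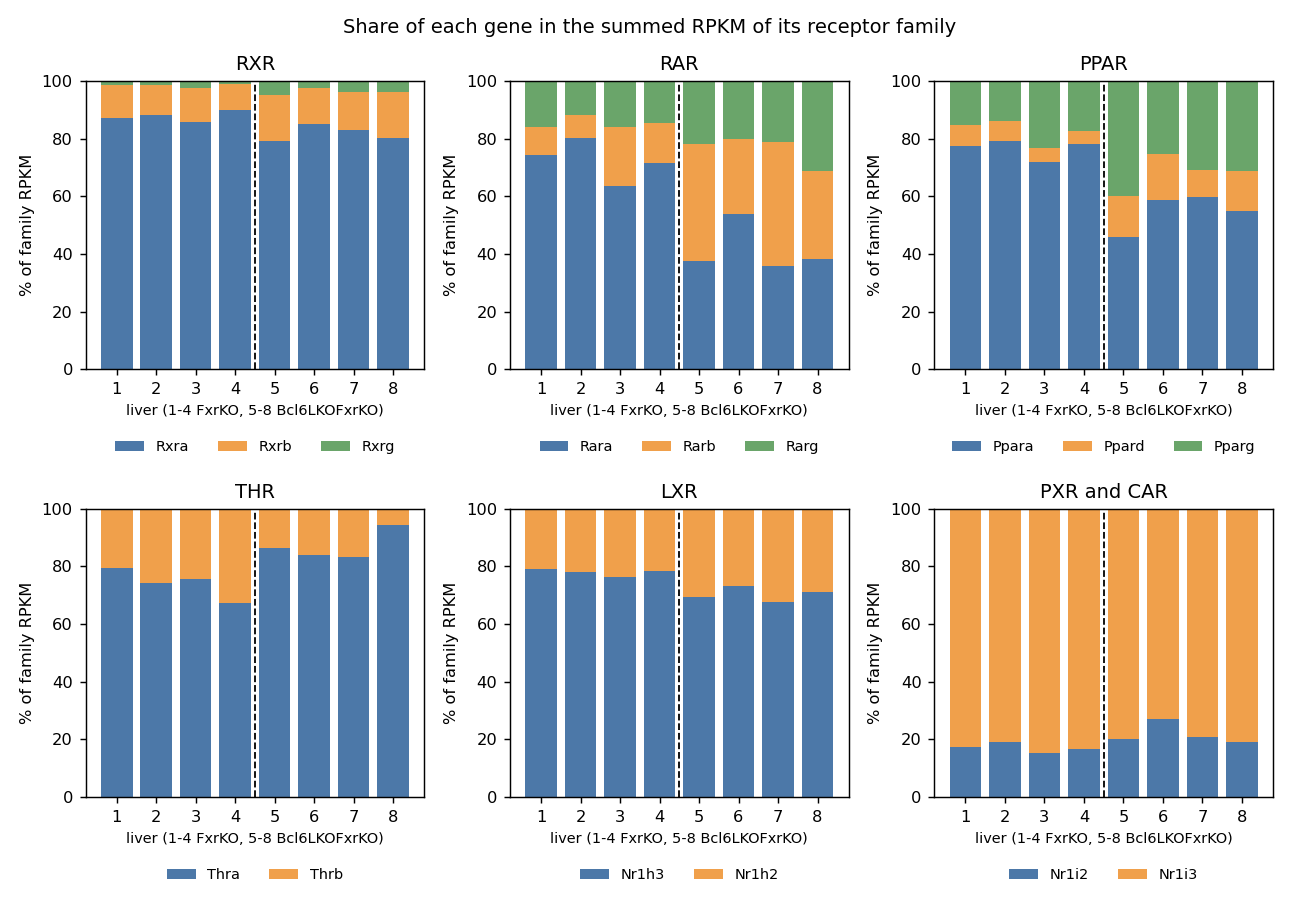
Percent of the summed RPKM of 6 receptor families that each gene held in each liver, FxrKO livers to the left of the dashed line and Bcl6LKOFxrKO livers to the right. The blue Rara and Ppara bars are shorter in every Bcl6LKOFxrKO liver, with means of 72.5% against 41.4% and 76.6% against 54.8%.

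Of 10 genes grouped here as orphan receptors, with no agreed hormone ligand, 8 were tested, 1 was called lower and none higher. Of all tested genes, 13.5% were called lower and 16.2% higher. The group leaves out Nr5a2 and Nr0b2, both called lower and given above with the bile acid genes. Nr2f2 (COUP-TFII), known for its part in veins, lymphatics and metabolism, was at 20.4, 22.0, 33.3 and 23.1 CPM in FxrKO and at 14.4, 13.6, 16.1 and 13.4 CPM in Bcl6LKOFxrKO livers. The genotypes did not overlap, although liver 3 was high in its group, and the log2 fold change was -0.78 (SE 0.16, adjusted p = 0.0031, edgeR). Without liver 3 or any other liver it remained called, between -0.87 and -0.61. Nr2f6 (-0.23), Nr2c1 (-0.20), Nr2c2 (-0.24) and Nr6a1 (0.28), which act mostly as repressors, were not called. Nr2c2 shares 46.2% of its exon bases with Mrps25 on the opposite strand and Nr2f6 41.2% with annotated exons of Ocel1. The Ocel1 transcript that was counted shares 0 bases with Nr2f6. Ocel1 was at 4.25 CPM in FxrKO and 4.91 CPM in Bcl6LKOFxrKO livers. Esrra, a regulator of mitochondrial genes (-0.34), and Rora, a receptor that activates clock genes (-0.45), were not called either, at adjusted p of 0.171 and 0.0848 (edgeR). Both were called with total counts alone, and Rora also without liver 7.

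Nr4a1, an immediate early gene, was at 3.75, 3.999, 5.80 and 2.18 CPM in FxrKO and at 4.73, 3.64, 20.4 and 12.0 CPM in Bcl6LKOFxrKO livers. Livers 7 and 8 were high while livers 5 and 6 lay within the FxrKO range, and its log2 fold change of 1.39 (SE 0.56) was not called (adjusted p = 0.0964, edgeR). It was called without liver 6 (1.65, adjusted p = 0.0274, edgeR). Of 8 other immediate early genes tested, 4 were called higher and none lower, their median log2 fold change was 1.33, and their summed level was 73.7 to 151 CPM in FxrKO and 210 to 443 CPM in Bcl6LKOFxrKO livers. Egr1 (2.34) and Btg2 (1.46) had the smallest adjusted p. Over all tested genes 16.2% were called higher and 13.5% lower, and the median was 0.01. Nr2f1 had 3 to 9 reads and Nr4a2 2 to 9, and neither was tested.

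Partners of the receptors and relatives outside the 34 genes were also counted. Of 20 coregulators, 19 were tested, 2 were called lower and 1 higher, and the median of the list was -0.30. The corepressor gene Ncor1 was at -0.48 (adjusted p = 0.0164, edgeR), the coactivator gene Ncoa1 at -0.39 (adjusted p = 0.0384, edgeR) and Gps2, part of the NCOR complex, at 0.40 (adjusted p = 0.0441, edgeR). Of 15 other nuclear receptor genes, 6 were tested and 1, Esrrg, was called, with a log2 fold change of -1.30 (adjusted p = 0.0375, edgeR). Nr0b1, Rorb, Nr2e1 and Esr2 had no reads in any liver. Of 12 tested clock genes, 1 was called lower and none higher, with a median of -0.34. This was Per2, at -1.57 (adjusted p = 0.0468, edgeR). Beside these lists, 13.5% of all tested genes were called lower and 16.2% higher, with a median of 0.01.

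**Figure D4:**
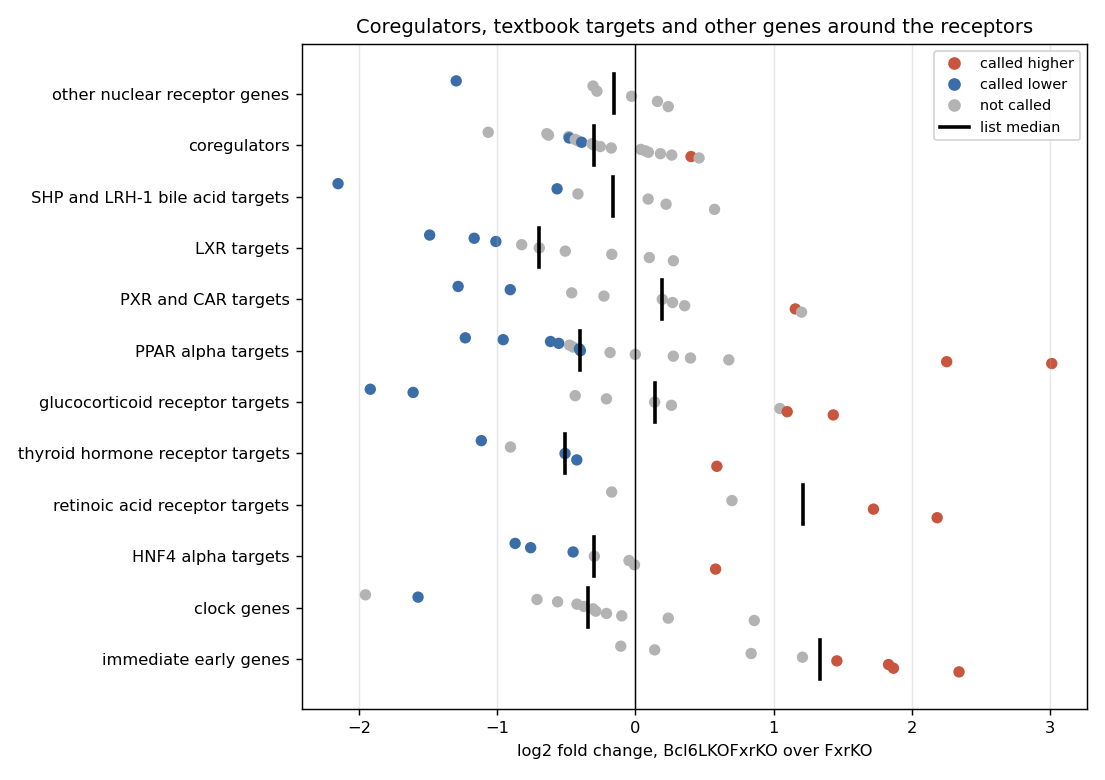
Log2 fold change, Bcl6LKOFxrKO over FxrKO, of each tested gene in the lists of other nuclear receptors, coregulators, textbook targets, clock genes and immediate early genes, with the list median as a black bar and the call as colour. The medians of the retinoic acid targets (1.21) and immediate early genes (1.33) lie to the right, and that of the LXR targets (-0.70) is furthest to the left.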

How the data were processed

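Liver poly(A) RNA of 4 FxrKO and 4 Bcl6LKOFxrKO males was sequenced with a stranded kit. The authors aligned reads to mm10 with STAR 2.5.2, kept uniquely placed reads with up to 4 mismatches, and deposited raw counts on exons, 1 transcript per gene, from HOMER 4.10 with no strand option named, beside the transcript length. The authors' test was DESeq2.

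Here, in R 4.3.3, edgeR 4.0.16 was used (filterByExpr, TMM, robust quasi-likelihood fit, Benjamini-Hochberg over 12340 genes). RPKM divide the CPM by the deposited length. SE is the absolute log2 fold change over the square root of F. Permutation tests were exact over 70 orderings. The fit was tested on simulated counts. The labels do not say whether livers came from separate litters or batches.

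The genes and lists were chosen with earlier results of these data known. Every tested receptor gene is named, called genes and 6 others, 1 of them (Nr4a1) chosen after its values were seen, by liver, and up to 2 genes per direction of each list, of which 2 are not reported here. Alternatives were DESeq2 1.42.0, limma 3.58.1 (voom), other scalings, filters, fold thresholds and each liver left out. Promoters are RefSeq, exon overlaps GENCODE M21.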

Additional observations from a re-analysis of the deposited data

Results flagged for a closer look

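Within a genotype, 1 of 4 livers stood apart from the other 3 by Dixon's criterion (gap over range above 0.829) for 3 of the 60 gene and genotype groups examined, where chance alone gives about 1 in 20. For Thrb, Bcl6LKOFxrKO liver 8 was at 7.08 CPM and the others at 13.0 to 13.6 CPM (ratio 0.902). For Nr3c2, Bcl6LKOFxrKO liver 7 was at 8.67 CPM and the others at 2.91 to 3.32 CPM (ratio 0.929). For Hnf4a, Bcl6LKOFxrKO liver 6 was at 825 CPM and the others at 604 to 635 CPM (ratio 0.859). Thrb was called lower with and without liver 8, and Hnf4a and Nr3c2 were called neither with nor without these livers.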

How the results depend on the processing

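No paired analysis was possible because no number in the labels is shared between genotypes: library names run from 1 to 8, and each title has its own animal number. Some animal numbers of the genotypes are consecutive, but no label says that this marks a litter or batch. Of the single-gene log2 fold changes under the alternatives, 405 kept direction and side of the threshold, 27 lost the call, 12 gained it and 5 turned. The turned ones were all uncalled: Nr1h3 (reported as -0.01) was at 0.0077 under the filter of 10 counts per liver and between -0.11 and 0.078 with each liver left out, above 0 without FxrKO liver 1 (0.03), Bcl6LKOFxrKO liver 5 (0.01) or 7 (0.078). Nr3c2 (reported as 0.30) lay between -0.24, without Bcl6LKOFxrKO liver 7, and 0.52.

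Total counts alone shifted log2 fold changes by a median of -0.16. Receptor genes called higher then fell to 3 from 5 and those called lower went to 13 from 9, while genes called lower overall went to 2949 from 1665, and 32.3% of all called genes were higher against 54.5%. With an absolute log2 fold change above 1, 2 receptor genes were higher and 1 lower, and 874 and 421 of all genes. With each liver left out, 3 to 5 receptor genes were called higher and 7 to 10 lower. Without the length scaling, 6 family shares moved by more than their spread and kept their direction. The differences in percentage points were then -3.09 for Rxra, 0.83 for Rxrg, -12.5 for Ppara, 7.22 for Pparg, 19.4 for Thra and -19.4 for Thrb. Genes under about 10 reads, such as Vdr, could not be assessed at this depth.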
